A study of Mus musculus with 6 samples.

Results

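The lysosomal cathepsins, cystatin C and lysozyme were read as 10 genes in RNA-seq of retinal vascular endothelial cells (VECs) from control and Bmal1;CKO mice. The members were the rows of the count table whose symbol is Ctsd, Ctsb, Ctsl, Ctss, Ctsz, Ctsh, Ctsc, Ctsa, Cst3 or Lyz2, which gave 10 of the 55487 genes listed. VECs were sorted from retinas of mouse pups on a C57BL/6 J background at postnatal day 7.5 (P7.5), at noon (ZT6, a time within the light phase). The control group was tdTomato FL/+;Pdgf-icreER and the Bmal1;CKO group was Bmal1 FL/FL;tdTomato FL/+;Pdgf-icreER, with 3 libraries each. All pups of both groups carried the reporter and the inducible Cre and were injected with tamoxifen daily from P0.5 to P2.5. The control group had no floxed Bmal1 allele, so the groups differ in that allele as well as in its recombination. The sort gate took cells positive for both GFP, made from the Pdgf-icreER transgene, and the tdTomato reporter, and the total RNA was amplified before library preparation.

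Cathepsins are proteases of the lysosome, the acidic compartment in which cells break down proteins taken up from outside or delivered by autophagy. They are made as inactive precursors, carry a mannose 6-phosphate tag or use other sorting receptors to reach the lysosome, and are activated there at low pH. Cystatin C, the product of Cst3, is a secreted inhibitor of the cysteine cathepsins, and lysozyme cuts the peptidoglycan of bacterial walls. Endothelial cells express several cathepsins, while Lyz2, Ctss and Cst3 are best known in the retina and brain from microglia and macrophages, which are rich in lysosomes. BMAL1, the protein targeted in the mutant, is a clock transcription factor that binds the E-box sequence together with CLOCK.

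The libraries held 71145068 to 104017800 reads on genes. Values below are normalized counts, the reads of a gene divided by the size factor of the library (0.711 to 1.40). Libraries are numbered 1 to 3 (control) and 4 to 6 (Bmal1;CKO), and n counts libraries. Transcripts of Bmal1, listed as Arntl, stood at 1700.4, 3489 and 2928 in control and 1779, 2747 and 2415 in Bmal1;CKO, which overlapped (log2 fold change -0.19, SE 0.36, limma-trend adjusted p = 0.924). The counts cover the whole gene and cannot show recombination within it, so they do not check the genotypes, and the group names here are those of the labels. By droplet digital PCR on sorted endothelial cells of these genotypes, the paper reports significantly less Bmal1 transcript in the mutant. All 14 endothelial markers and all 13 markers of microglia and macrophages were measured. The summed endothelial markers (Pecam1, Cdh5, Cldn5, Kdr and others) came to 188501 to 368696 normalized counts in control and 113845 to 240383 in Bmal1;CKO. The summed microglial markers (C1qa, C1qb, C1qc, Csf1r, Cx3cr1 and others) came to 1616613 to 4735920.4 and 2286259 to 4609735. In each library the microglial markers thus held more reads than the endothelial markers, although the cells were sorted as VECs. The 10 rod markers summed to 847981 to 982052 in control and 652774 to 1033861 in Bmal1;CKO. They too held more reads than the endothelial markers in each library. Monocyte and neutrophil markers were near 0, with 1 of 8 at 0 in every library, 4 of 8 at or under 3 reads in every library and a highest value of 146 normalized counts. Among rod and Müller glia markers 1 gene each had an unadjusted p under 0.05, Cnga1 at a log2 fold change of -1.37 and Sox9 at 1.33, both at an adjusted p of 0.883 in limma-trend.

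None of the 10 members differed between the genotypes at FDR < 0.05, and 9 of the 10 had a higher mean log2 level in Bmal1;CKO (7 of the 10 by edgeR and DESeq2). All 10 members passed the filter of at least 10 reads in at least 3 libraries. None reached an unadjusted p under 0.05 either. Over all 20459 genes tested, 0% passed FDR < 0.05 and 4.92% had an unadjusted p under 0.05 in limma-trend, an empirical Bayes linear model. DESeq2 called 67 genes at that FDR (0.327%) and edgeR 0 (0%), and neither called a member. The groups overlapped for every member, whereas they did not overlap for 11.2% of all genes. The median log2 fold change of the members was 0.30 against 0.11 for all genes tested, of which 56.6% were above 0. The 10 genes took 3.79%, 2.17% and 2.97% of all reads on genes in the control libraries and 4.09%, 3.76% and 3.19% in the Bmal1;CKO libraries. The means were 2.98% ± 0.808 and 3.68% ± 0.456 (SD, n = 3 each, exact two-sided permutation p = 0.3). With 3 libraries against 3, the smallest exact p is 0.1.

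**Figure D1:**
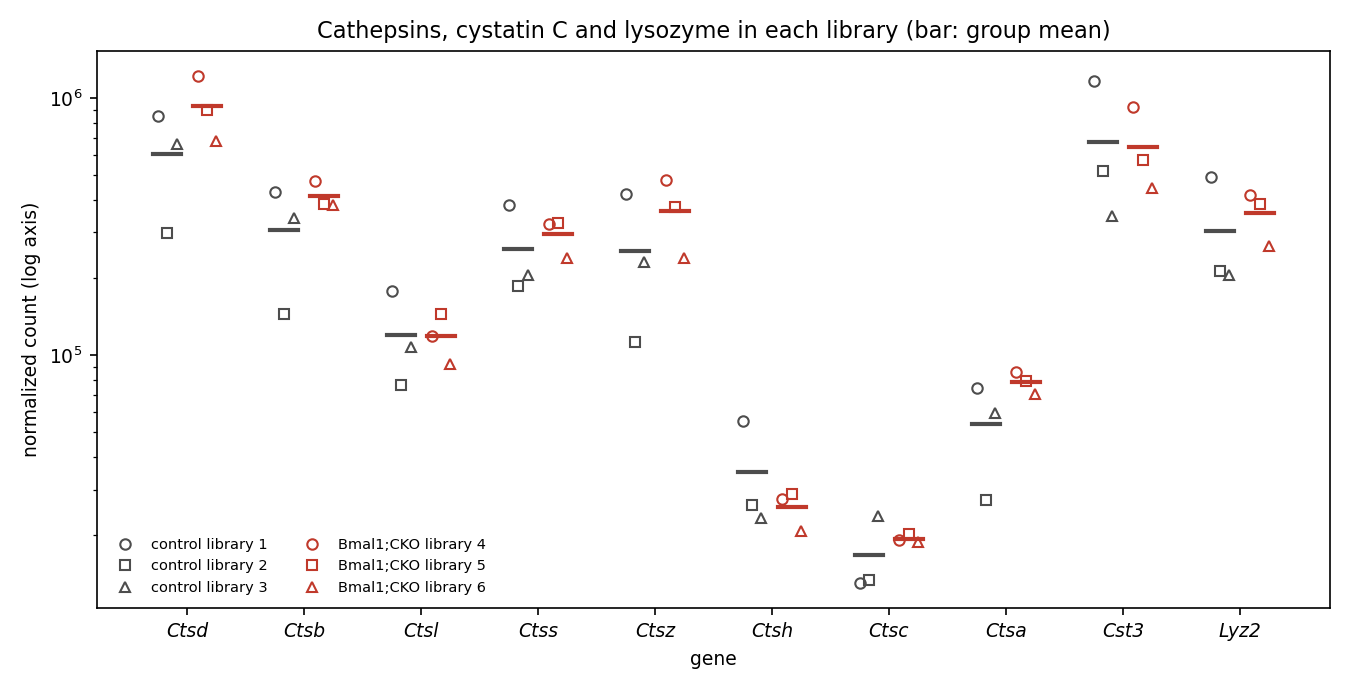
Normalized count (vertical log axis) of each of the 10 genes in each of the 6 libraries, with grey symbols for control, red for Bmal1;CKO and a bar at the mean of each group. Control and Bmal1;CKO symbols overlap for every gene, and control library 2 is the lowest point for 6 of the 10 genes.

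Ctsd encodes cathepsin D, the main aspartic protease of the lysosome (chr7:142375911-142388038 on the minus strand, GRCm38). Its values were 853715, 299247 and 663909.9 in control and 1216992, 901808 and 682263 in Bmal1;CKO. Library 4 was the highest and library 2 the lowest, and control library 1 lay above Bmal1;CKO library 6. Means were 605624 ± 281792 in control and 933688 ± 268786 in Bmal1;CKO (SD, n = 3 each). Ctsd had the largest log2 fold change of the 10, 0.71 (SE 0.62, 95% interval -0.73 to 2.15, adjusted p = 0.883), which was within the spread between libraries. That value was 0.27 without control library 2 and 1.03 without control library 1. The annotated exons of Ctsd share 808 bases on the same strand with Gm49369, which holds 37.1% of the 31-base words of Ctsd and had a median of 0 normalized counts. How reads in the shared bases were assigned is not given in the sources used here, so the count of Ctsd carries that limit.

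The promoters were searched for the E-box CACGTG, which reads the same on both strands, because the targeted factor binds it. RefSeq windows of 300 bases on GRCm38.p6 (250 before to 50 after a start) were at hand for 8 of the 10 members, in 9 windows, with no entry for Ctsb and Ctsh. The E-box was found in windows of Ctsd, Ctsl and Ctsa, which are 3 of the 8 genes, against 8.09% of the 27025 genes with a window. By window it was 3 of 9 against 7.15% of 32851. The sites are printed 5′ to 3′ on the strand of the gene, with the E-box in capitals.
Ctsd, chr7:142388055-142388077, minus strand: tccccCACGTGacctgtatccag
Ctsd, chr7:142387908-142387937, minus strand: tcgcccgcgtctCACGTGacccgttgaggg
Ctsl, chr13:64370739-64370768, minus strand: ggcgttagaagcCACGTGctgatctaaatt
Ctsa, chr2:164833749-164833778, plus strand: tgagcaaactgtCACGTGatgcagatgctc
Ctsa, chr2:164833766-164833795, plus strand: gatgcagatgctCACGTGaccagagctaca
The Ctsd sites start at -245 and -98 and the Ctsl site at -236 from the RefSeq start, while the Ctsa sites start at -12 and 6 at the second of its starts, and those printed stretches overlap. In the GENCODE M21 models the genes begin at 142388038 (Ctsd), 64370890 (Ctsl) and 164832873 (Ctsa). By those starts only the first Ctsd site is upstream of its gene, and the other printed sites lie within their genes. The genes with an E-box had log2 fold changes of 0.71 (Ctsd), 0.04 (Ctsl) and 0.67 (Ctsa), and none passed the test. A match in the letters is a description and not evidence of binding, by BMAL1 or by any other factor.

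The cysteine cathepsins Ctsb, Ctsz, Ctss and Ctsl differed by less than the spread between libraries. Ctsb, a broadly expressed endopeptidase (chr14:63122462-63145923 on the plus strand), stood at 432552, 144508 and 340799 in control and 477127, 387861 and 382496 in Bmal1;CKO. The 3 Bmal1;CKO libraries were close together, and control library 2 stood below all of them by a wide margin. The means of Ctsb were 305953 ± 147149.6 in control and 415828 ± 53154 in Bmal1;CKO (SD, n = 3 each), with a log2 fold change of 0.58 (95% interval -0.63 to 1.79, adjusted p = 0.883). Ctsz encodes a carboxypeptidase (chr2:174427493-174439039 on the minus strand) and stood at 421461, 112782 and 231101 in control and 480174, 376687 and 238221 in Bmal1;CKO. Its highest library exceeded its lowest 4.26-fold, the widest range of the 10, and library 6 was within the control range. The log2 fold change of Ctsz was 0.66 (95% interval -0.68 to 2.00, adjusted p = 0.883). Ctsb overlaps Fdft1 by 774 bases of exon on the opposite strand and Ctsz overlaps Nelfcd by 10. The use of strand in the counting is not given in the sources used here.

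Ctss encodes cathepsin S, which stays active at neutral pH and trims the invariant chain of MHC class II in antigen-presenting cells (chr3:95526786-95556403 on the plus strand). It stood at 381838, 186161 and 204392 in control and 324166, 327104 and 239338 in Bmal1;CKO. Control library 1 was the highest and control library 2 the lowest, so the control range enclosed all Bmal1;CKO libraries. The log2 fold change of Ctss was 0.27 (95% interval -0.75 to 1.29, adjusted p = 0.909). Ctsl, a potent endopeptidase (chr13:64359337-64370890 on the minus strand), stood at 176905, 76502 and 107318 in control and 118474, 145007 and 92663 in Bmal1;CKO. Its control range also enclosed the Bmal1;CKO libraries. The log2 fold change of Ctsl was 0.04 (95% interval -0.89 to 0.97, adjusted p = 0.987) and -0.02 in edgeR and DESeq2. The exons of Ctsl overlap the pseudogene Gm49230 and the antisense gene Gm47123, both at a median of 0 normalized counts.

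Ctsh and Ctsc, which trim peptides from their amino ends, held fewer reads. Ctsh (chr9:90054152-90076089 on the plus strand), an aminopeptidase, stood at 55465, 26159 and 23317 in control and 27454, 28919.9 and 20642 in Bmal1;CKO. Control library 1 stood apart above all other libraries, and library 6 was the lowest. In limma-trend Ctsh was the only member with a mean log2 level below control, with a log2 fold change of -0.35 (95% interval -1.21 to 0.52, adjusted p = 0.886), which was 0.04 without control library 1. Ctsc (chr7:88278085-88310888 on the plus strand) encodes the dipeptidyl peptidase that activates serine proteases of immune cells, and stood at 13043, 13346 and 23631 in control and 19107, 20059 and 18791 in Bmal1;CKO. Here control libraries 1 and 2 were low and control library 3 was the highest, unlike the other members, none of which was highest in library 3. The Bmal1;CKO libraries of Ctsc varied 1.07-fold from lowest to highest, the narrowest range of the 10 in either group. Its log2 fold change was 0.27 (95% interval -0.41 to 0.94, adjusted p = 0.886).

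Ctsa encodes the lysosomal carboxypeptidase that also protects neuraminidase and beta-galactosidase in a complex (chr2:164832873-164841032 on the plus strand). It stood at 74497, 27266 and 59426 in control and 85942, 79332 and 70847 in Bmal1;CKO. Bmal1;CKO libraries 4 and 5 were above every control library, and library 6 lay between control libraries 3 and 1. Means were 53729 ± 24125 in control and 78707 ± 7567 in Bmal1;CKO (SD, n = 3 each). Ctsa had the smallest unadjusted p of the members, 0.139, with a log2 fold change of 0.67 (SE 0.40, 95% interval -0.27 to 1.61, limma-trend adjusted p = 0.883). Of its partners in the complex, Neu1 had a log2 fold change of 0.30 and Glb1 of -0.12, neither past the test. Ctsa overlaps exons of Pltp by 495 bases and of Neurl2 by 324 on the opposite strand.

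Cst3, the cystatin C gene (chr2:148871722-148875692 on the minus strand), stood at 1162535, 519092 and 346125 in control and 926245, 571481 and 445216 in Bmal1;CKO. Each group spanned a wide range, with control library 3 the lowest and control library 1 the highest of all 6. Means were 675917 ± 430206 in control and 647648 ± 249396 in Bmal1;CKO (SD, n = 3 each). The log2 fold change of Cst3 was 0.06 (95% interval -1.42 to 1.54, adjusted p = 0.990) and -0.06 in edgeR and DESeq2. Lyz2, the lysozyme gene of macrophages and other myeloid cells (chr10:117277331-117282321 on the minus strand), stood at 491948, 212214 and 205101 in control and 418882, 388253 and 266601 in Bmal1;CKO. Control library 1 was again the highest and libraries 2 and 3 the lowest. The log2 fold change of Lyz2 was 0.34 (95% interval -0.82 to 1.50, adjusted p = 0.906). Lyz2 shares 32.8% of its 31-base words with Lyz1, which stood at 128 to 1400.2 normalized counts, so reads between these genes may be split.

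For each of the 10 members the fold from the lowest to the highest control library was larger than the fitted fold between genotypes. The highest control library exceeded the lowest by 1.81-fold (Ctsc) to 3.74-fold (Ctsz), while the largest fitted difference between genotypes was 1.64-fold (Ctsd). The first is a range of single libraries and the second a fold between group means. The share of all genes with this pattern was not counted. The range was wider in control than in Bmal1;CKO for all 10 members and for 73.6% of the 15046 genes whose lowest library held 10 reads or more. The 95% intervals all enclosed 0, and the upper bound was above 1, a doubling, for 7 of the 10. Leaving out 1 control library brought 3 members to an unadjusted p under 0.05, though not to FDR < 0.05. These were Ctsa (log2 fold change 0.96, limma-trend adjusted p = 0.547) and Ctsz (1.12, adjusted p = 0.573) without control library 1. The third was Ctsc without control library 3, with a log2 fold change of 0.55. Its adjusted p there, 0.405 in limma-trend, was the lowest of any member under any setting. In limma-trend, 1746 of 20224 genes had an unadjusted p under 0.05 without control library 1, and 2332 of 19600 without control library 3. Without control library 2 the log2 fold change was 0.24 for Ctsa, 0.17 for Ctsz and 0.11 for Ctsb.

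**Figure D2:**
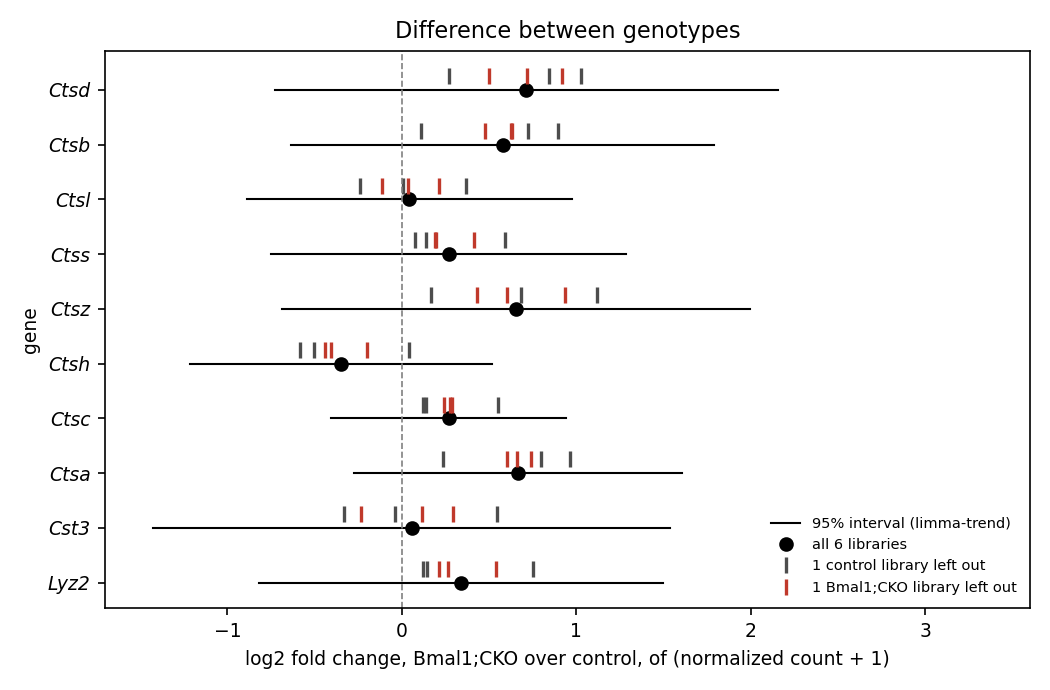
Log2 fold change of each gene, Bmal1;CKO over control, on the log2(normalized count + 1) scale (horizontal axis), with the 95% interval of limma-trend as a line and ticks above it for fits with 1 library left out (grey for a control library, red for a Bmal1;CKO library). Every interval crosses 0, and for most genes the outermost ticks are those without a control library.

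Levels of different genes were compared per kb of annotated exon. Cst3 had the highest mean, 522735 ± 248721 normalized counts per kb (SD over 6 libraries), followed by Ctsd at 327374 ± 129679 and Lyz2 at 251139.8 ± 90558. Ctsz and Ctss came next at 215178 ± 96209 and 204099 ± 57671. Cst3 was above Ctsd in 5 of 6 libraries, and Ctsd above Lyz2, Lyz2 above Ctsz and Ctsz above Ctss in 4 of 6 each, so the order of these neighbours was not the same in every library. Ctss was above Ctsb in 6 of 6, and Ctsb, at 59641 ± 19139.8, was above Ctsl in 6 of 6. Ctsl (18412 ± 5626), Ctsa (14044 ± 4463), Ctsh (6741 ± 2816) and Ctsc (3099 ± 706) closed the order. The order depends on the length used, and the exon length of Ctsd includes the 808 bases shared with Gm49369. With the principal transcript in place of all exons, Ctsh (18755 per kb) came before Ctsa (18162) and Ctsc came to 7219, while Cst3 was above Ctsd in 6 of 6 libraries and Ctsd above Lyz2 in 5 of 6.

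Among the 8 cathepsins, Ctsd, Ctsz and Ctss together made up most of the summed level per kb. Ctsd held 32.5% to 42.6% across the libraries, Ctsz 20.0% to 27.4% and Ctss 19.7% to 35.0%. In control library 2 Ctss was the largest part, at 35.0%, ahead of Ctsd at 32.5%, and in the other 5 libraries Ctsd was. With the length of the principal transcript Ctsd was the largest part in control library 2 as well, at 32.9% against 32.1% for Ctss. Ctsb held 6.09% to 8.63%. Ctsl, Ctsa, Ctsh and Ctsc each stayed at or under 3.01%. With principal transcripts the mean control share of Ctsh was 2.89% in place of 1.13%, with a highest value of 3.78%, and that of Ctsc 0.987% in place of 0.463%. The Ctsh share was 1.16%, 1.48% and 0.753% in control and 0.503%, 0.643% and 0.627% in Bmal1;CKO. Those Ctsh values did not overlap, and neither did those of Ctsl, at 2.40% to 3.01% in control and 1.50% to 2.24% in Bmal1;CKO. Divided by the same summed cathepsin level, 9.93% of all genes tested were lower in Bmal1;CKO without overlap and 1.73% higher. Shares sum to a fixed total, so a lower share of Ctsh or Ctsl goes with higher shares of others, and no test was run on them.

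**Figure D3:**
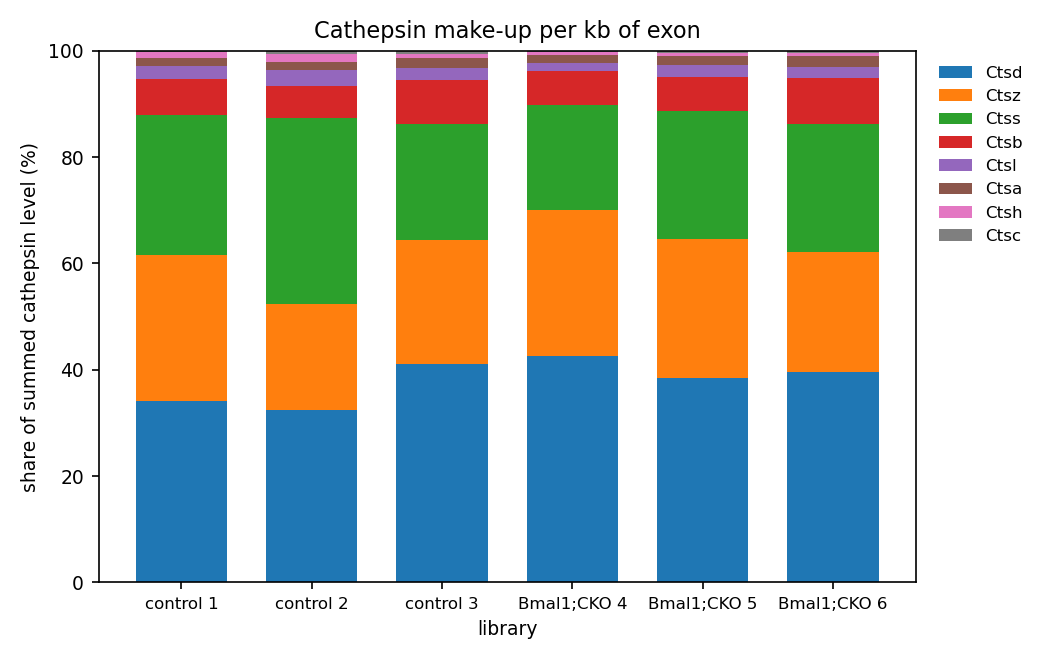
Share of each cathepsin in the summed level of the 8 cathepsins per kb of exon (vertical axis, percent, stacked to the full total) in each library (horizontal axis). Ctsd, Ctsz and Ctss fill most of every bar, and control library 2 differs by a larger Ctss part and a smaller Ctsz part.

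The members did not vary across the libraries as a single block. Ctsd, Ctsb, Ctsz and Ctsa shared a deep minimum in control library 2, at -1.24, -1.23, -1.31 and -1.19 from their own mean on the log2 scale. In control library 3 these genes were 2.05-fold (Ctsz) to 2.36-fold (Ctsb) higher than in control library 2. Cst3, Lyz2 and Ctsh instead stood 0.667, 0.966 and 0.891 times as high in library 3 as in library 2, and Ctss 1.10 times. The microglial markers differed among themselves too, with 4 of 13 more than 2 times as high in library 3 as in library 2, 4 lower in library 3 and 5 in between, at 1.03 (C1qa) to 1.84 times (Itgam). Cx3cr1, the fractalkine receptor, and Csf1r, the receptor for colony-stimulating factor, stood 2.21 and 2.64 times as high in library 3 as in library 2. Tyrobp, a signalling adaptor, and Aif1, which encodes the microglial marker IBA1, stood 0.693 and 0.567 times as high. Cx3cr1, Csf1r, Tyrobp and Aif1 are named here after their values were seen. The sum of the microglial markers was 4735920.4, 1616613 and 1943256 in the control libraries and 4609735, 3095167 and 2286259 in the Bmal1;CKO libraries, and that of the members was 4063958, 1617276 and 2205119 and 4094564, 3226511 and 2457079.8. Both sums were highest in libraries 1 and 4 and lowest in library 2. In bulk RNA, fewer cells of a type and less RNA per cell cannot be told apart.

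**Figure D4:**
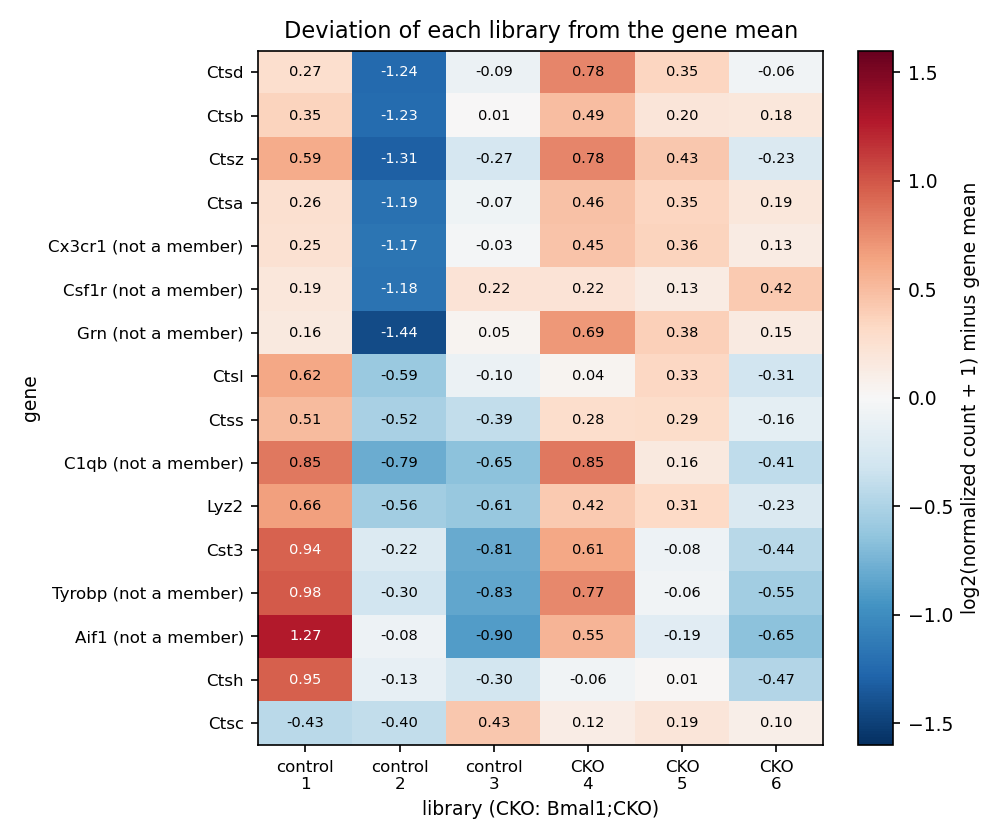
Deviation of each library from the mean of the gene on the log2(normalized count + 1) scale (colour and printed value) for the 10 members, 5 microglial markers and Grn (rows), in the 3 control and 3 Bmal1;CKO libraries (columns). Ctsd, Ctsb, Ctsz and Ctsa are lowest in control library 2 with Cx3cr1, Csf1r and Grn, whereas Cst3 is lowest in control library 3 with Tyrobp and Aif1. The microglial markers shown were picked from a list of 13. Of that list, 5 were 1.03 to 1.84 times as high in control library 3 as in control library 2.

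The genes closest to the mean profile of the members were Trmt2a, Gm3052, Arid5a, Timp2 and Gm26520, by Pearson's coefficient of the log2 values over the 6 libraries. The coefficients were 0.996, 0.994, 0.992, 0.992 and 0.991, the highest 5 among the 20459 genes tested over 6 points, and are a description. Timp2 encodes an inhibitor of matrix metalloproteinases and stood at 89191, 25077 and 41693 in control and 94141, 65736 and 46474 in Bmal1;CKO. Like the mean of the members, it was high in libraries 1 and 4 and lowest in library 2.

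Relative to the microglial markers, 9 of the 10 members overlapped between genotypes and Ctsh was lower in Bmal1;CKO. Each member was divided by the summed normalized counts of the 13 microglial markers in the same library. Ctsh came to 1.17, 1.62 and 1.20% of that sum in control and 0.596, 0.934 and 0.903% in Bmal1;CKO, so each Bmal1;CKO library was below each control library. The means were 1.33% ± 0.250 and 0.811% ± 0.187 (SD, n = 3 each), and the difference was -0.73 on the log2 scale (exact two-sided permutation p = 0.1, the smallest possible). It ranged from -0.84 to -0.52 with 1 library left out. Of all genes tested, 6.47% were lower without overlap and 1.62% higher by the same ratio, so 1 member of 10 is near the background. The ratio of Ctsh stayed without overlap against the C1q genes alone, the list without them and its geometric mean.

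Among the other members, Lyz2 and Ctss kept closest to the marker sum and Ctsc varied most. Lyz2 was 10.4, 13.1 and 10.6% in control and 9.09, 12.5 and 11.7% in Bmal1;CKO. Ctss was 8.06, 11.5 and 10.5% in control and 7.03, 10.6 and 10.5% in Bmal1;CKO. From the lowest to the highest library these ratios varied 1.44-fold and 1.64-fold, and that of Ctsc 4.42-fold. Ctsd was 18.0, 18.5 and 34.2% in control and 26.4, 29.1 and 29.8% in Bmal1;CKO, with control libraries 1 and 2 below and control library 3 above the Bmal1;CKO libraries. Cst3 was 24.5, 32.1 and 17.8% in control and 20.1, 18.5 and 19.5% in Bmal1;CKO, and here control libraries 1 and 2 were above. The log2 differences ranged from -0.73 (Ctsh) to 0.34 (Ctsd), with a median of -0.07. The microglial markers themselves had a median log2 fold change of 0.40, with 10 of 13 higher and none past FDR < 0.05 or an unadjusted p under 0.05, while 13 of 14 endothelial markers were lower, with a median of -0.50 and likewise none past the test. The part of these markers in the differences of the members was not tested.

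**Figure D5:**
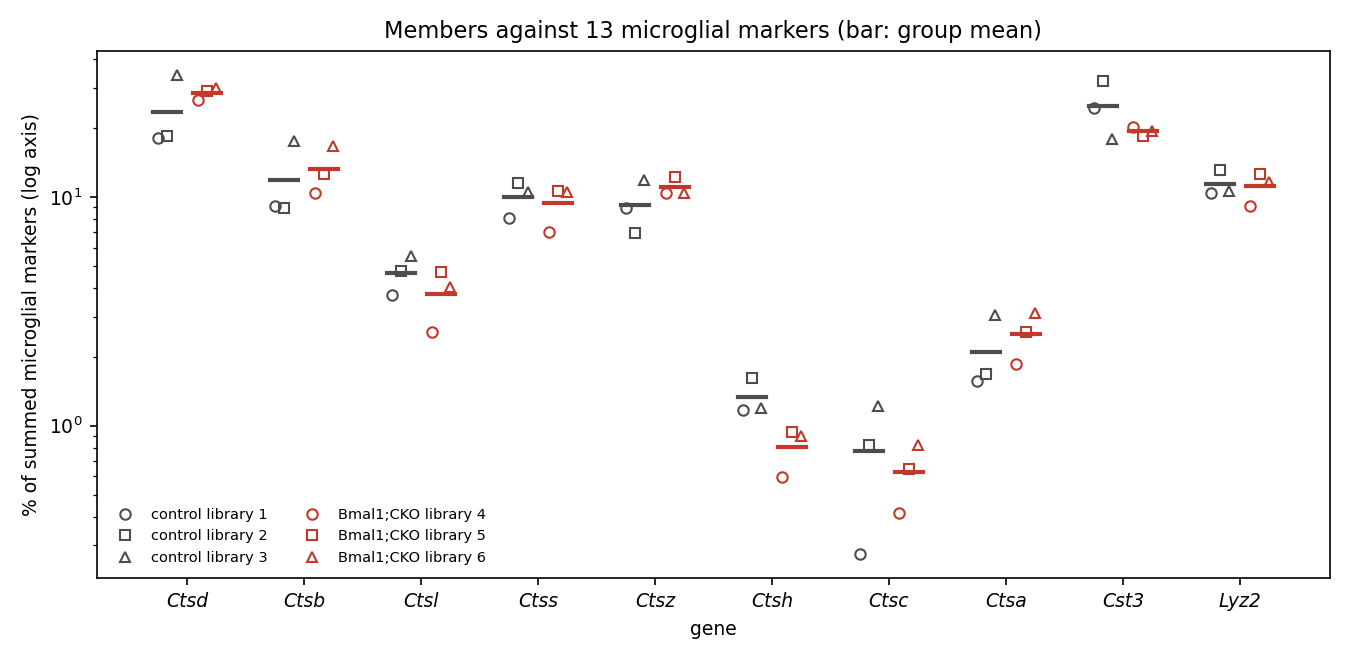
Each member as a percentage of the summed normalized counts of 13 microglial markers in the same library (vertical log axis), with grey symbols for control, red for Bmal1;CKO and a bar at the mean of each group. The red and grey symbols are apart for Ctsh only and overlap for the other 9 genes.

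The ratio of Cst3 RNA to that of the cysteine cathepsins did not separate the genotypes, and protein was not measured. The ratio of Cst3 to the summed 6 cysteine cathepsins, in normalized counts, was 0.785, 0.928 and 0.372 in control and 0.640, 0.445 and 0.449 in Bmal1;CKO. Control library 3 was the lowest and control library 2 the highest, so the groups overlapped (exact two-sided permutation p = 0.4, n = 3 each). The ratio of Ctsd, which encodes an aspartic protease, to Cst3 was 0.734, 0.576 and 1.92 in control and 1.31, 1.58 and 1.53 in Bmal1;CKO. Control library 3 was again apart from control libraries 1 and 2 (exact two-sided permutation p = 0.4, n = 3 each). The ratio of Ctsd to Ctsb was steadier, at 1.97, 2.07 and 1.95 in control and 2.55, 2.33 and 1.78 in Bmal1;CKO. These are ratios of counts, which carry the gene lengths, and only their change between libraries is meaningful.

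The other genes of the pathway also gave no call. Of 12 other cathepsins and lysosomal proteases, 11 were tested. In Bmal1;CKO 8 were higher and 3 lower in limma-trend, and 6 higher and 5 lower by group means and in edgeR. Ctsk and Napsa, both at low counts with at least 1 control library at or near 0, account for the change by group means. The median log2 fold change was 0.41 (0.20 in edgeR), with none at FDR < 0.05 or at an unadjusted p under 0.05. Lgmn, the asparaginyl endopeptidase that processes cathepsins, held the most reads of the list and stood at 56281, 24561 and 54122 in control and 52423, 56047 and 47211 in Bmal1;CKO. Ctsg, a protease of neutrophil granules, was at 0 in every library. Ctsf, a cysteine cathepsin, stood at 20427, 17913 and 20495 in control and 22932, 31309 and 24278 in Bmal1;CKO. Its groups did not overlap, with a log2 fold change of 0.41 (SE 0.24, limma-trend adjusted p = 0.883), and it is named after its values were seen. Genes higher in Bmal1;CKO without overlap made up 6.62% of all tested, against 1 of 11 here.

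Of 12 other cystatins and lysozymes, 4 were tested and 5 were at 0 in every library. Of the 4, Cstb, Cst6, Cst7 and Lyz1, 3 were higher and 1 lower in limma-trend and none passed the test. By group means and in edgeR the count turned to 1 higher and 3 lower, with a median log2 fold change of -0.29 in edgeR against 0.27 in limma-trend. Cstb, an inhibitor of cathepsins inside the cell, stood at 31077, 17924 and 9314 in control and 18931, 9881 and 9581 in Bmal1;CKO. Control library 1 was the highest and control library 3 the lowest, as for Cst3. Cst7, which encodes cystatin F, stood at 20613, 8991 and 9421 in control and 20471, 11272 and 8933 in Bmal1;CKO. Libraries 1 and 4 were high and the others close together.

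All 15 genes of lysosomal sorting, partners and regulators were tested, of which 11 were higher and 4 lower. Their median log2 fold change was 0.30, and none passed FDR < 0.05 or an unadjusted p under 0.05. Grn, whose product progranulin binds cathepsin D and prosaposin, held the most reads and stood at 171081, 56526 and 158391 in control and 247704, 199483 and 169584 in Bmal1;CKO. Library 4 was the highest and library 2 the lowest, as for Ctsd, and its log2 fold change was 0.82 (adjusted p = 0.883). Gnptab, which encodes the enzyme that starts the mannose 6-phosphate tag, and Igf2r, a receptor for it, had log2 fold changes of -0.58 and 0.37. Tfeb, the transcription factor of lysosomal genes, stood at 5152, 1936 and 3949 in control and 9015, 5712 and 5216 in Bmal1;CKO, with every Bmal1;CKO library above every control library. Its log2 fold change was 0.92 (SE 0.41, unadjusted p = 0.0573, limma-trend adjusted p = 0.883), and it was 0.52 without control library 2 and 1.22 without control library 1. Sort1, the sorting receptor sortilin, did not overlap either, at 1794, 1502 and 1837 in control and 2226, 2062 and 2909 in Bmal1;CKO (log2 fold change 0.48, adjusted p = 0.883). Both are named after their values were seen, and 2 of 15 compares with the same 6.62% of all genes.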

How the data were processed

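RNA of VECs from retinas of 3 control and 3 Bmal1;CKO animals was amplified (Smart v4 kit) and sequenced from Nextera XT libraries. Reads were checked with FastQC, trimmed with Trimmomatic, aligned to mm10 (GRCm38) with Bowtie and counted with featureCounts; the use of strand is not given in the sources used here. The authors deposited a signal per gene, its reads over the size factor that DESeq2 gave the library, along with their mean, log2 fold change, standard error, test statistic and p-values per gene, which were not used. Columns name a genotype but match no single sample, so each was a replicate of its genotype, and spread between libraries is all that p-values measure. Whole reads were recovered for 100% of values (tolerance 0.02).

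Genes reaching 10 reads in 3 or more libraries were tested by limma-trend on log2(normalized count + 1), with Benjamini-Hochberg adjustment over 20459 genes (R 4.3.3, limma 3.58.1), after the fit was tested on simulated data. Fold changes are on that scale. Single values had exact two-sided permutation tests. Alternatives were edgeR 4.0.16 (TMM and size factors), DESeq2 1.42.0, limma-voom and log2 CPM with a prior count of 2, pseudocounts of 0.5 and 10, genes with at least 1 read in total or 10 in every library, and each library left out. Added after seeing the data were the geometric mean of the microglial list, the principal transcript length and the directions of the lists by group means. Gene models are GENCODE M21, with 55141 of 55487 identifiers matched, and promoters are from RefSeq. Named genes are the members, genes of the pathway lists, marker genes and the 5 genes most like the mean of the members. The marker genes are the first of their list or those at an unadjusted p under 0.05. Others were picked for their values in control libraries 2 and 3, after those values were seen. Pathway genes picked after their values were seen are marked. Members and lists were chosen with earlier results of these data known.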

Additional observations from a re-analysis of the deposited data

How the results depend on the processing

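No member passed FDR < 0.05 under any of the alternatives run. Under the 9 alternatives that keep all libraries, 84 of 90 member values kept their sign. The log2 fold change of Ctsl turned to -0.020 in edgeR with TMM, -0.018 in edgeR with size factors and -0.018 in DESeq2, and that of Cst3 to -0.065, -0.062 and -0.062. In those fits 7 of 10 members were higher and the median of all genes was -0.03 in place of 0.11. With 1 library left out, 6 of 60 member values changed sign, in Ctsl (-0.24 to 0.37), Cst3 (-0.33 to 0.54) and Ctsh (-0.58 to 0.041). The median log2 fold change of the members was 0.22 to 0.30 under the other alternatives and 0.12 (without control library 2) to 0.67 (without control library 1) with 1 library left out. The median of the members relative to the microglial markers, -0.07, was 0.044 against the geometric mean of the list and -0.18 to 0.14 with 1 library left out.

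Over all genes, 0 passed FDR < 0.05, against 67 in DESeq2, 1 with at least 1 read in total, 1 with at least 10 reads in every library, and 0 to 6 with 1 library left out, the 6 without control library 1. An unadjusted p under 0.05 was found for 1007 genes, 64.3% of them higher in Bmal1;CKO, and 318 to 2332 with 1 library left out, the lowest without library 5 and the highest without control library 3; that share was 50.1% in edgeR with TMM, 50.5% with size factors, 43.8% in DESeq2 and 47.6% with at least 10 reads in every library. No paired analysis was possible because the columns of the table carry no numbers shared between the genotypes. With 3 libraries per genotype the 95% intervals of the members reached 0.67 to 1.48 to either side on the log2 scale. These intervals are for single genes without adjustment, so they give no limit of detection at FDR < 0.05.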
